A study of Mus musculus with 6 samples.

Results

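The cadherins and protocadherins are adhesion receptors whose extracellular part is built from repeated calcium-binding domains. Members were the genes whose symbol in the deposited expression table is Cdh followed by a number, any Pcdh symbol, Fat1 to Fat4, Dchs1, Dchs2 or Celsr1 to Celsr3. These rules gave 102 of the 55487 rows of the table. They were divided into 5 type I classical cadherins, 13 type II classical cadherins, 5 other Cdh genes, the clustered protocadherins (14 alpha, 22 beta and 22 gamma rows), 12 non-clustered protocadherins and 9 large atypical cadherins (Fat, Dachsous and Celsr).

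Classical cadherins bind like to like between neighbouring cells and hold on to the actin cytoskeleton through catenins. Clustered protocadherins lie in tandem gene arrays from which single neurons express different combinations, giving each neuron a surface identity that helps sister branches avoid each other. Fat, Dachsous and Celsr proteins set planar polarity, the common orientation of cells within a sheet, and in the brain they act in neuronal migration, axon guidance and the alignment of ependymal cilia. The adult subventricular zone holds neural stem cells, their dividing progeny, migrating neuroblasts and, at its surface, ependymal cells.

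Sorted subventricular zone cells of adult mice, marked by a yellow fluorescent reporter, gave the RNA. The knockout group was labelled E2F1(-/-);E2F3(F/F) and the heterozygous group E2F1(+/-);E2F3(F/+), with 3 libraries each (A, B and C). Mice of both groups carried the NestinCreERT2/R26;EYFP alleles on a C57BL/6;Sv/129;FVB/N background, were 6 to 10 weeks old at the start, and all received tamoxifen (200 mg/kg per day for 5 days by gavage). For each library, tissue of several mice was pooled 10 days after the end of dosing, until at least 200000 reporter-positive cells were collected. The E2f3 allele is recombined only where the Nestin-driven, tamoxifen-dependent Cre acts, whereas the E2F1(-/-) label gives no such restriction, so the loss of E2f1 and that of E2f3 cannot be told apart, and the heterozygous controls themselves carried 1 null E2f1 allele and 1 floxed E2f3 allele. The series title asks how activator E2F factors act on the expression signatures of quiescent and activated stem cells.

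Values are read counts divided by the authors' size factor for the library, called normalized reads below. Reads in genes ranged over 19798675 to 25982361 per library. E2f1 had 375, 483 and 516 normalized reads in knockout libraries A, B and C, against 1152, 1388 and 1030 in heterozygous libraries (log2 change -1.38 ± 0.22 SE, limma adjusted p = 0.00559). E2f3 had 324, 231 and 245 normalized reads in knockout libraries, against 293, 205 and 253 in heterozygous libraries, and did not pass (adjusted p = 0.845). A count over a whole gene does not check the loss of a floxed part of it. Among marker lists, all 15 neuroblast genes were lower in knockout, with summed levels of 13973 to 17792 normalized reads in knockout and 71499 to 118531 in heterozygous libraries. All 8 proliferation markers were lower as well. Mature or striatal neuron markers went both ways, with 2 higher and 4 lower among 8 tested. Their sums were 2920, 3230 and 3613 in knockout A, B and C and 2844 to 3716 in heterozygous libraries. Of 12 ependymal markers, 7 were higher, with sums of 71324, 43820 and 17941 in knockout A, B and C and 12119 to 14180 in heterozygous libraries. The knockout libraries also differed among themselves. The 12 endothelial markers summed to 46827, 16391 and 6143 in knockout A, B and C and to 7680 to 10173 in heterozygous libraries. Over all libraries, 0 were called by limma (2 at an unadjusted p under 0.05) and 3 by DESeq2, and 12 were called by limma without knockout C. The unadjusted limma p was under 0.05 for 6085 of all 18227 tested genes. Microglia markers summed to 13813, 4027 and 4291 in the same knockout libraries, and varied between heterozygous A, B and C too (2738, 4130 and 9387). All 12 markers of quiescent stem cells and astrocytes had positive log2 changes, 3 of them called, with sums of 404954, 642401 and 707819 in knockout A, B and C and 308107 to 465918 in heterozygous libraries. All 11 mural and fibroblast markers were positive too, with 2 called. Heterozygous A had 48118 summed reads of 7 choroid plexus markers, against 774 to 3649 in the other 5 libraries. No gene of these lists was at 0 in every library. In such bulk samples, fewer cells of a type and less RNA per cell cannot be told apart.

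With limma on all libraries the superfamily as a whole was not called more often than other genes, and the called members pointed both ways. Of the 102 members, 91 had a mean of at least 10 normalized reads and were tested, and 14 passed limma at a Benjamini-Hochberg adjusted p under 0.05. The share called among all 18227 tested genes was 15.8%, and that among tested members was 15.4%. In knockout 4 members were higher, where 7.23% of all tested genes were, and 10 were lower, where 8.59% of all tested genes were. The members that rose were Celsr1, Fat1, Cdh26 and Pcdhgb8. Those that fell were Celsr3, Dchs1, Cdh8, Pcdha7, Pcdha8, Pcdha9, 1 of the 2 Pcdha11 rows, Pcdhb9, Pcdhb17 and Pcdhb19. The median log2 change was -0.34 over tested members and 0.05 over all tested genes. All 3 knockout libraries lay below all 3 heterozygous libraries for 27 tested members, a pattern found in 20.2% of all tested genes, and above them for 10, a pattern found in 18.5%. For the other 54 members the groups overlapped.

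How many members passed depended on which libraries were included. With knockout C left out, 4 were higher and 23 lower. With knockout A left out, 2 were higher and 7 lower, and with knockout B left out, 1 was higher and 3 lower. With heterozygous A left out, 1 was higher and 2 lower, with heterozygous B left out 1 and 1, and with heterozygous C left out 4 and 9. Counts over all tested genes also moved between these fits, in both directions, with ranges given in the last section. Subfamily counts given below for single fits have no all-gene share beside them. Over all tested genes, 2057 were lower without knockout C and 470 without heterozygous B, against 1565 with all libraries. In proportion, the small count of lower members rose more than that of all genes without knockout C. It also fell more without heterozygous B. Celsr1 and Celsr3 passed in each of these 6 fits.

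**Figure D1:**
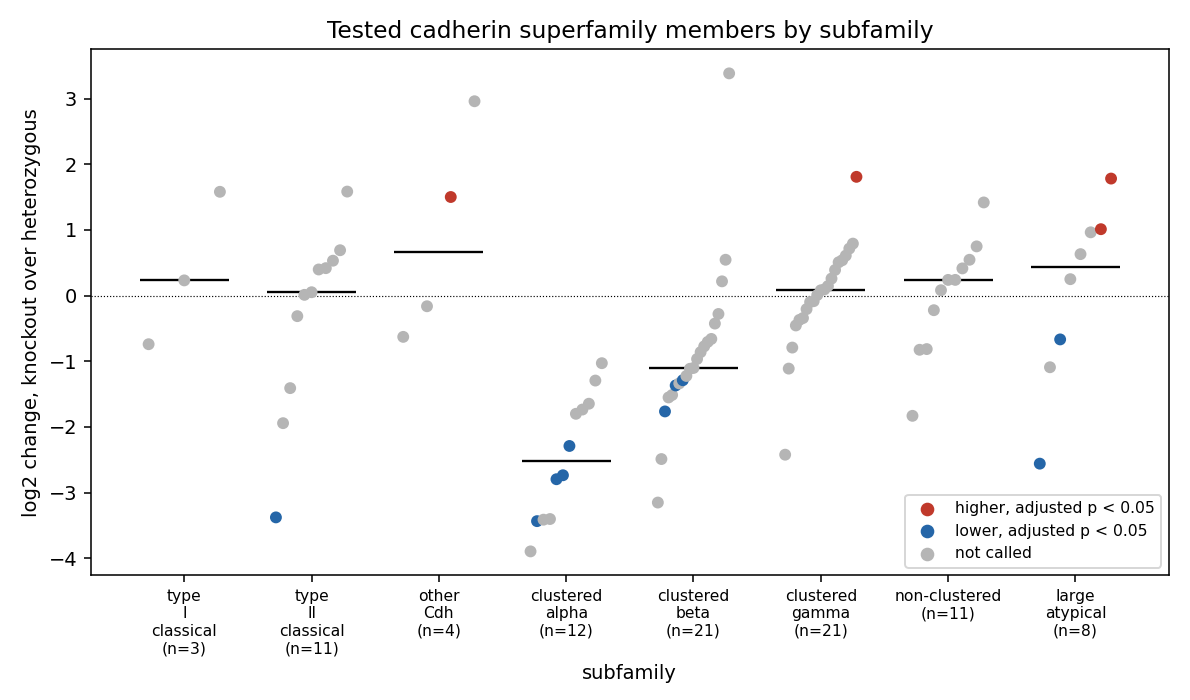
Log2 change of knockout over heterozygous for the 91 tested members, by subfamily; each point is 1 gene, the black line is the median, and colour marks genes past an adjusted p of 0.05. The alpha cluster lies wholly below 0 (median -2.51) and the beta cluster mostly so (median -1.10), while the gamma cluster is centred near 0 (median 0.08).

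The Celsr genes encode the mammalian Flamingo proteins, cadherins with a hepta-helical membrane domain at the core of planar polarity. They include both members that passed with any single library left out, 1 in each direction. Celsr3, needed in mouse for the guidance of major axon tracts, had 151, 92.6 and 148 normalized reads in libraries A, B and C of the knockout and 709, 934 and 655 in heterozygous A, B and C. Its groups were far apart, and each knockout library was below every heterozygous one (log2 change -2.56 ± 0.29 SE, 5.90-fold lower, adjusted p = 0.00131). Celsr1, best known for polarity in epithelia and the neural tube, had 1586, 1437 and 2425 normalized reads in knockout libraries and 568, 337 and 707 in heterozygous libraries. Here all knockout libraries were above all heterozygous ones (log2 change 1.78 ± 0.31, 3.44-fold higher, adjusted p = 0.00789). Celsr2, which acts in mouse with Celsr3 in ependymal ciliogenesis, had 1071, 813 and 922 normalized reads in knockout libraries and 881, 659 and 822 in heterozygous libraries. Its groups overlapped, and the change did not pass (log2 change 0.25 ± 0.21, adjusted p = 0.434).

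Levels per kilobase, here and below, count only exon bases not shared with another annotated gene. Per kilobase of exon, Celsr1 averaged 165 normalized reads in knockout and 48.8 in heterozygous libraries, Celsr2 81.2 and 68.4, and Celsr3 10.9 and 63.8. The order of mean levels was therefore Celsr1, Celsr2, Celsr3 in knockout libraries and Celsr2, Celsr3, Celsr1 in heterozygous libraries. As a ratio of reads within a library, not corrected for length, Celsr1 over Celsr3 was 10.5, 15.5 and 16.4 in knockout libraries and 0.801, 0.361 and 1.08 in heterozygous libraries. The ratio was thus high in every knockout library and at or near 1, or below it, in the heterozygous ones.

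Fat and Dachsous proteins are giant cadherins that bind each other across cell contacts, with Fat4 and Dchs1 as the best-studied receptor and ligand pair in mouse. Fat1 had 1052, 1211 and 888 normalized reads in libraries A, B and C of the knockout and 498, 405 and 684 in heterozygous A, B and C. Every knockout library was higher than every heterozygous one (log2 change 1.01 ± 0.25, 2.02-fold higher, adjusted p = 0.0268). Dchs1 had 1159, 1265 and 1037 normalized reads in knockout libraries and 1927, 1881 and 1685 in heterozygous libraries. The groups were again separated, with knockout the lower (log2 change -0.67 ± 0.18, 1.59-fold lower, adjusted p = 0.0356). Fat1 reads per Dchs1 read were 0.857 to 0.957 in knockout and 0.215 to 0.406 in heterozygous libraries. Fat4 had 224, 192 and 207 normalized reads in knockout libraries and 192, 37.2 and 165 in heterozygous libraries. Heterozygous B was the lowest library for Fat4, and the difference did not pass (log2 change 0.96 ± 0.56, adjusted p = 0.256). Dchs2 and Fat3 were low (at most 55.5 and 101 normalized reads) and did not pass, and Fat2 had no read in any library. The calls of Fat1 and Dchs1 did not hold in every fit with 1 library left out. Their log2 changes kept their sign in all alternative fits, at 0.84 to 1.21 for Fat1 and -0.74 to -0.57 for Dchs1. Fat1 no longer passed without knockout A, knockout B, heterozygous A or heterozygous B (adjusted p of 0.0508 to 0.128), and Dchs1 did not pass with any 1 of the 6 libraries left out (adjusted p of 0.0582 to 0.113).

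**Figure D2:**
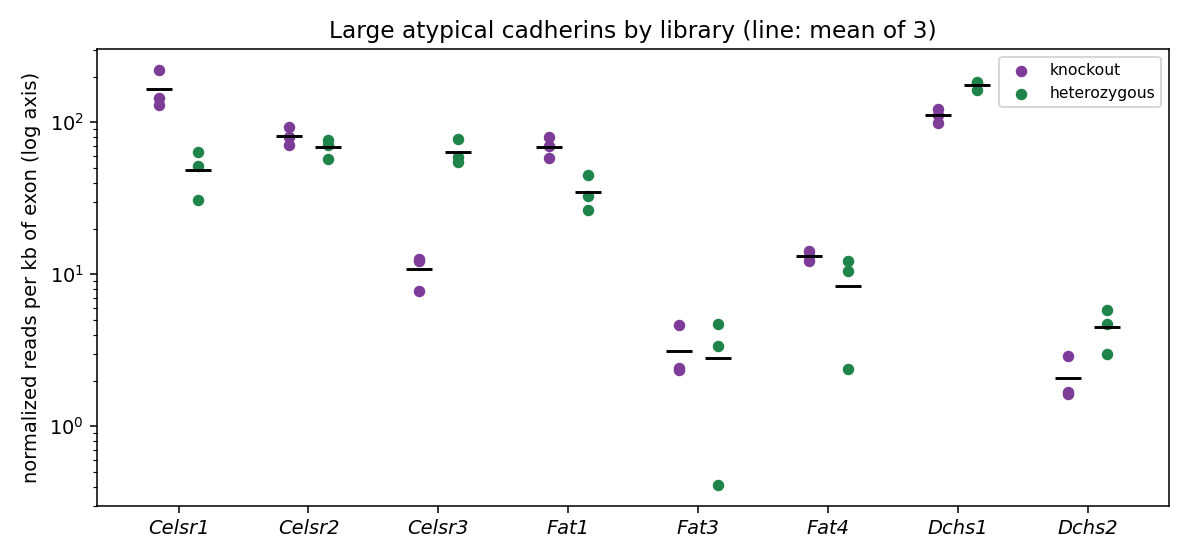
Normalized reads per kilobase of exon not shared with another gene (log axis) for the 8 large atypical cadherins with reads, one point per library and a line at the mean of 3, knockout left of heterozygous. Celsr1 and Fat1 are higher in knockout (means of 165 and 69.3, against 48.8 and 34.9), Celsr3 and Dchs1 lower (10.9 and 111, against 63.8 and 176).

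Among the type II classical cadherins, which have neuronal, glial and vascular members, Cdh8 changed most and was the 1 member of 11 tested to pass with limma. Cdh8, a cadherin of neuronal subsets that acts at synapses, had 21.9, 6.23 and 8.10 normalized reads in libraries A, B and C of the knockout and 132, 151 and 83.0 in heterozygous A, B and C. Knockout libraries had few reads and none reached the lowest heterozygous library (log2 change -3.38 ± 0.58, 10.4-fold lower, adjusted p = 0.00775). Its call was lost without heterozygous B (adjusted p = 0.0574) and held with each of the other 5 left out. The neuroblast markers were lower in the same libraries, as given above, while the mature or striatal neuron markers went both ways. The part of either list in the differences of Cdh8, Celsr3 and the protocadherin clusters was not tested.

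The highest type II levels per kilobase belonged to genes that did not pass. Cdh11, a cadherin of mesenchymal cells, averaged 209 normalized reads per kilobase in knockout and 136 in heterozygous libraries (log2 change 0.53 ± 0.35, adjusted p = 0.311). Cdh10, a neuronal cadherin, averaged 86.7 and 79.9, and Cdh19, found in glia and Schwann cells, 86.8 and 83.3. The log2 changes of Cdh10 and Cdh19 were 0.05 ± 0.28 and 0.01 ± 0.36 (adjusted p = 0.917 and 0.987), and both changed sign in some fits with 1 library left out. Cdh5, the VE-cadherin of endothelial cells, had 259, 96.2 and 24.3 normalized reads in libraries A, B and C of the knockout and 29.3, 15.7 and 46.0 in heterozygous libraries. Its order over the knockout libraries was that of the endothelial marker sum, high in A and low in C. The ependymal, the mural and fibroblast and the choroid plexus sums shared this order. Cdh5 did not pass with limma (adjusted p = 0.198), whereas the authors' deposited table called it higher (log2 change 2.06, the authors' adjusted p = 0.0163). The median over the 11 tested type II members was 0.05.

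Type I classical cadherins gave no call among 3 tested with limma, none had an unadjusted p under 0.05, and edgeR and DESeq2 called 0 as well. Cdh2, the N-cadherin of neural cells, had the highest level of the group, at 527 normalized reads per kilobase in knockout and 798 in heterozygous libraries. It had 2094, 3974 and 6678 normalized reads in libraries A, B and C of the knockout and 7731, 5827 and 5761 in heterozygous A, B and C. Knockout A and B were below all heterozygous libraries and knockout C was between them, so the groups overlapped (log2 change -0.74 ± 0.36, adjusted p = 0.183). Without knockout C, Cdh2 passed as lower (adjusted p = 0.0134). Cdh4, the R-cadherin, did not differ beyond its spread (log2 change 0.23 ± 0.30, adjusted p = 0.617), and neither did Cdh15, the M-cadherin of muscle, at no more than 77.5 normalized reads (1.58 ± 0.71, adjusted p = 0.153). Cdh1, the E-cadherin of epithelia, had no read in any library. Cdh3 averaged 1.01 normalized reads in knockout and 9.42 in heterozygous libraries, where 28.2 in heterozygous A made up the whole.

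Of the remaining Cdh genes, Cdh26 passed. Cdh26, studied mostly in human epithelia, had 746, 720 and 300 normalized reads in libraries A, B and C of the knockout and 253, 151 and 184 in heterozygous A, B and C. Knockout A and B were well above the rest and knockout C only just above heterozygous A (log2 change 1.501 ± 0.39, 2.83-fold higher, adjusted p = 0.0314). The ependymal markers had the same order over the knockout libraries, with sums of 71324, 43820 and 17941. So had the endothelial markers (46827, 16391 and 6143), the mural and fibroblast markers and the choroid plexus markers. The part of any of these lists in the difference was not tested. Cdh26 lost its call with any library but knockout C left out (adjusted p of 0.0642 to 0.131), and without knockout C its adjusted p was 0.00134. Cdh17, the liver and intestine cadherin, had 12.1, 16.9 and 55.7 normalized reads in knockout libraries and 3.03, 0 and 6.00 in heterozygous libraries. The groups were separated at a low level, and the change did not pass (log2 change 2.96 ± 1.001, adjusted p = 0.0724). Cdh13, a cadherin held in the membrane by a lipid anchor, did not pass either (-0.16 ± 0.63, adjusted p = 0.877). Cdh23, a tip-link protein of hair cells, had at most 48.3 normalized reads and no stable direction (-0.63 with limma, 0.67 with edgeR), and Cdh16 had none in any library.

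The promoters of called members are shown because the deleted genes encode DNA-binding factors, and E2F words could be looked for in them. RefSeq sequences on GRCm38.p6, running from 250 bases before to 50 bases after the annotated start, matched 29 members (32 promoters), of which 4 were called. They are given 5′ to 3′ on the gene's strand, with matches to the words searched in capitals.
Celsr3 (chr9:108825795-108826094, plus strand): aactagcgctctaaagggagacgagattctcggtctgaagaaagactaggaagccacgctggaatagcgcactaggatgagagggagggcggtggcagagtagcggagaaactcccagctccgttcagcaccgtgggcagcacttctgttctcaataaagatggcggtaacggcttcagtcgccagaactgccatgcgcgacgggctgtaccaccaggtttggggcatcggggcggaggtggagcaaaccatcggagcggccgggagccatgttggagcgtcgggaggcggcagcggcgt
Cdh8 (chr8:99416422-99416721, minus strand): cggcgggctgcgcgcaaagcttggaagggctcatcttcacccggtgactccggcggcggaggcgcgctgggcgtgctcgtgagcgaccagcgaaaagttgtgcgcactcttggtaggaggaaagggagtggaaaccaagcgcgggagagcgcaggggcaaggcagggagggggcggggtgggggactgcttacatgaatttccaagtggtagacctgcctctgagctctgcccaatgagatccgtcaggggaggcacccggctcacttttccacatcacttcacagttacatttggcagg
Fat1 (chr8:44949958-44950257, plus strand): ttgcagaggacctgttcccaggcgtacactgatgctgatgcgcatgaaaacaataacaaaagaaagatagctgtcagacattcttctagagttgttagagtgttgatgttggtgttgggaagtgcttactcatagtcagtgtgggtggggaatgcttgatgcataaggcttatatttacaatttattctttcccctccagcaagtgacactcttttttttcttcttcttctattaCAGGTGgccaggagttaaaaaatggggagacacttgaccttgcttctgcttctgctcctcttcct
Cdh26 (chr2:178430265-178430564, plus strand): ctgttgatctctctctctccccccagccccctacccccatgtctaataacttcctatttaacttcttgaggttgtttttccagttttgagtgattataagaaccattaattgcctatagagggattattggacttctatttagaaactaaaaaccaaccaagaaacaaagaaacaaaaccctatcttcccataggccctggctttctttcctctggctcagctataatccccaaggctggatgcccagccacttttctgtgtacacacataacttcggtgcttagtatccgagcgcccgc

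No E2F word (TTTCCCGC, TTTCGCGC, TTTGCCGC or TTTGGCGC, on either strand) was in these 4 windows. The words were in 2.26% of all 32851 promoters of the table and in 1 of the 32 member promoters, that of Cdh22, at position -238 from the start. The E-box CAGCTG, the type bound by proneural factors, was in 16.3% of all promoters and 3 of 32 member promoters. The E-box CAGGTG, or CACCTG on the other strand, is the type bound by Snail and Zeb repressors, was in 20.2% of all promoters and 7 of 32 member promoters, and gave the capitals in Fat1, at position -15. The Fat1 window lies inside the gene as GENCODE draws it (chr8:44935447-45052257), so it is not at the outermost start given there. The Celsr3 window ends at 108826094, before the GENCODE start of that gene at 108826320, so it does not hold that start either. These matches are letters in a window and not evidence of binding.

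The clustered protocadherins lie on chromosome 18 in GRCm38, with the alpha rows at 36930184 to 37187661, the beta rows at 37264938 to 37524479 and the gamma rows at 37661793 to 37841873. In the alpha and gamma clusters each variable first exon is spliced to last exons common to its cluster, whereas each beta gene stands alone. Each alpha or gamma row shared exon bases with 12 to 26 other annotated genes, and levels per kilobase, as above, use the unshared bases only. Pcdhga10 had no unshared base and Pcdha4 only 404, and their values of at most 3.29 and 3.998 normalized reads show that reads of the common exons were not credited to every row. Values of single rows therefore come mostly from their own first exon, and how reads were split between such similar genes is not given in the sources used here.

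The alpha rows pointed down in knockout without exception among those tested. All 12 tested rows had negative log2 changes, with a median of -2.51 (-2.21 with edgeR on recovered reads), and 4 passed. The groups were separated, with knockout below, in 9 of the 12. Of all tested genes, 8.59% passed as lower and 20.2% were separated with knockout below. Pcdha8 had 17.6, 8.01 and 17.2 normalized reads in libraries A, B and C of the knockout and 122, 125 and 57.0 in heterozygous A, B and C. All knockout libraries were low, and heterozygous C was the lowest of its group (log2 change -2.74 ± 0.55, 6.67-fold lower, adjusted p = 0.0144). Pcdha9 had 16.5, 12.5 and 11.1 normalized reads in knockout libraries and 83.7, 63.7 and 59.97 in heterozygous libraries, again without overlap (-2.29 ± 0.49, 4.89-fold lower, adjusted p = 0.0178). Pcdha7 had 9.87, 17.8 and 5.06 normalized reads in knockout libraries and 112, 63.7 and 56.0 in heterozygous libraries, the highest being heterozygous A (-2.80 ± 0.61, 6.95-fold lower, adjusted p = 0.0186). Of the 2 rows named Pcdha11, ENSMUSG00000102206 passed, with 3.29, 0 and 1.01 normalized reads in knockout libraries and 20.2, 15.7 and 30.0 in heterozygous libraries (-3.44 ± 0.90, adjusted p = 0.0332), a change that rests on a handful of reads in knockout. The other, ENSMUSG00000007440, had overlapping groups (-1.29 ± 0.76, adjusted p = 0.261).

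These alpha calls did not hold in every fit with 1 library left out. Without heterozygous A or heterozygous B, 0 alpha rows passed, although the medians were -2.32 and -2.44. Without knockout B, 1 passed, Pcdha7. Without knockout A, knockout C or heterozygous C, 4, 6 and 4 passed. Pcdha7 was lost without heterozygous A or B (adjusted p = 0.0831 and 0.0733), and Pcdha8 and Pcdha9 without these or knockout B (0.0593 to 0.0776). The Pcdha11 row was lost without these 3 or heterozygous C (0.0909 to 0.118). In the alpha cluster the summed level was 126, 154 and 229 normalized reads in knockout libraries and 1004, 886 and 490 in heterozygous libraries. Every knockout sum was under the lowest heterozygous sum, and the log2 ratio of the group means was -2.23.

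Beta genes mostly had lower levels in knockout too, with exceptions. Of 21 tested genes, 18 had negative log2 changes, 3 passed as lower and none as higher with limma, and the median was -1.10. The share passing as lower was 14.3%, against 8.59% of all tested genes. DESeq2 called 6 lower and 1 higher. Pcdhb17 had 190, 121 and 221 normalized reads in libraries A, B and C of the knockout and 450, 459 and 363 in heterozygous A, B and C. The groups were well separated (log2 change -1.29 ± 0.30, 2.44-fold lower, adjusted p = 0.0226). Pcdhb9, the beta gene with the highest level per kilobase (65.3 in knockout and 188 in heterozygous libraries), had 147, 84.6 and 367 normalized reads in knockout libraries and 530, 709 and 485 in heterozygous libraries. Knockout C was the nearest to the heterozygous range (-1.76 ± 0.47, 3.40-fold lower, adjusted p = 0.0355), and with edgeR on recovered reads the gene did not pass (adjusted p = 0.0622). Pcdhb19 had 53.7, 39.2 and 54.6 normalized reads in knockout libraries and 139, 137 and 108 in heterozygous libraries, with no overlap (-1.37 ± 0.37, 2.58-fold lower, adjusted p = 0.0372). Pcdhb7, also among the highest per kilobase with 56.0 in knockout and 115 in heterozygous libraries, did not pass (-1.12 ± 0.52, adjusted p = 0.168).

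Pcdhb1, Pcdhb3 and Pcdhb6 had positive log2 changes without passing. Pcdhb1, first in the array, had 35.1, 12.5 and 13.2 normalized reads in knockout libraries and 5.04, 0 and 0 in heterozygous libraries (3.38 ± 1.04, adjusted p = 0.0548). Its groups were separated, in the direction opposite to most of the cluster, at a low level. Pcdhb3 and Pcdhb6 had overlapping groups (adjusted p = 0.672 and 0.691). The beta sum was 1316, 1506 and 2899 normalized reads in knockout libraries and 3658, 3875 and 3045 in heterozygous libraries. Knockout C reached nearly the level of heterozygous C, and the log2 ratio of the means was -0.89. Without knockout C, 9 beta genes passed as lower, without knockout A or heterozygous C 1 did, and with knockout B, heterozygous A or heterozygous B omitted none did. Pcdhb9 and Pcdhb19 lost their calls without any library but knockout C (adjusted p of 0.0513 to 0.149), and Pcdhb17 without knockout B, heterozygous A or heterozygous B (0.0838 to 0.101).

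**Figure D3:**
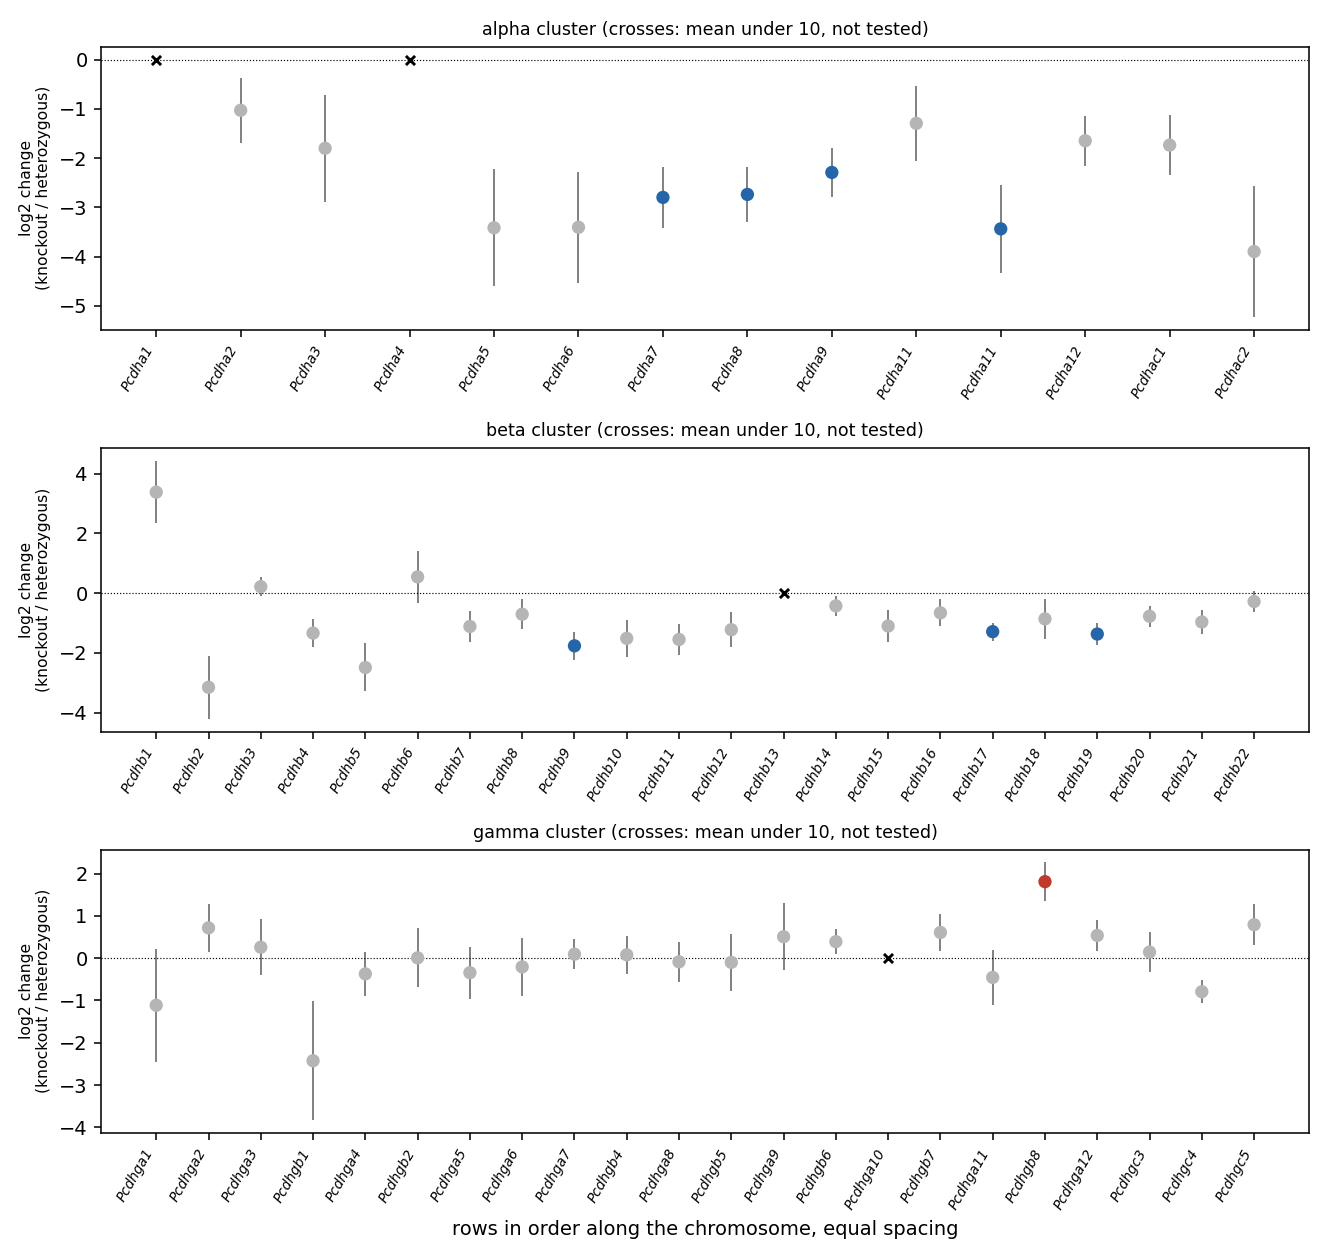
Log2 change of knockout over heterozygous (points, bars ± 1 SE) for the rows of the alpha, beta and gamma clusters in chromosomal order with equal spacing; blue and red mark called decreases and increases, and crosses on the 0 line mark rows left untested for low counts. All 12 tested alpha rows and 18 of 21 beta rows are negative, against 9 of 21 gamma rows.

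The gamma cluster gave no common direction. Of 21 tested rows, 12 had positive and 9 negative log2 changes, with a median of 0.08, and the groups overlapped in 19. Of all 18227 tested genes, the groups overlapped in 11167. Pcdhgb8, listed by GENCODE as a polymorphic pseudogene, was the 1 row to pass. It had 79.0, 89.9 and 160 normalized reads in libraries A, B and C of the knockout and 28.2, 36.3 and 23.99 in heterozygous A, B and C. Every knockout library was above every heterozygous one (log2 change 1.81 ± 0.45, 3.503-fold higher, adjusted p = 0.0289), but the call held only when knockout A was the library left out (adjusted p of 0.0646 to 0.0973 in the other 5 fits). Pcdhgc3, the gamma row with the highest level, averaged 626 normalized reads per kilobase in knockout and 496 in heterozygous libraries. It had 444, 1022 and 1951 normalized reads in knockout libraries and 1203, 603 and 906 in heterozygous libraries. The knockout libraries were both the lowest and the highest, and the change did not pass (0.14 ± 0.48, adjusted p = 0.856). Pcdhgc4, required in mouse for the survival of many neurons, had 803, 595 and 951 normalized reads in knockout libraries and 1915, 1133 and 1089 in heterozygous libraries. Its groups were separated, with knockout below, without passing (-0.79 ± 0.28, adjusted p = 0.0777). Pcdhgb7 averaged 194 normalized reads per kilobase in knockout and 134 in heterozygous libraries (0.61 ± 0.44, adjusted p = 0.365).

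Gamma rows varied widely between the knockout libraries. Knockout A was the lowest of the 6 libraries for 12 of the 21 tested gamma rows (57.1%, against 24.5% of all tested genes), and knockout C the highest for 13 (61.9%, against 17.0%). The gamma sum was 2887, 4658 and 7347 normalized reads in knockout libraries and 6640, 3453 and 4373 in heterozygous libraries, so the knockout sums spanned the heterozygous ones. Without knockout C, 0 gamma rows were higher and 1 was lower, and the median was -0.28. Without knockout A the median was 0.59 and 1 row was higher.

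The 5 C-type genes, which are more often expressed constitutively than the alternate isoforms, gave no call with limma or edgeR. An unadjusted limma p under 0.05 was found for 3 of them, and for 6085 of all 18227 tested genes. The groups were separated with knockout below for 3, a pattern found in 20.2% of all tested genes. Pcdhac2 had 0, 21.4 and 70.8 normalized reads in libraries A, B and C of the knockout and 297, 247 and 71.0 in heterozygous A, B and C. Knockout C and heterozygous C were almost at the same value (log2 change -3.90 ± 1.33, adjusted p = 0.0744, and -2.70 with edgeR). Pcdhac1 had 32.9, 17.8 and 34.4 normalized reads in knockout libraries and 132, 156 and 39.0 in heterozygous libraries, where C was again the lowest (-1.74 ± 0.60, adjusted p = 0.0772). Pcdhgc5 did not pass (0.79 ± 0.48, adjusted p = 0.278). In the authors' deposited table Pcdhac1 and Pcdhgc4 were called lower (log2 changes -1.95 and -0.82, the authors' adjusted p = 0.00592 and 0.0404). The C-type rows held 25.4% to 46.0% of alpha reads in knockout and 22.4% to 45.5% in heterozygous libraries, which overlap. Of gamma reads they held 43.3% to 48.9% in knockout and 50.3% to 54.0% in heterozygous libraries, lower in every knockout library.

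**Figure D4:**
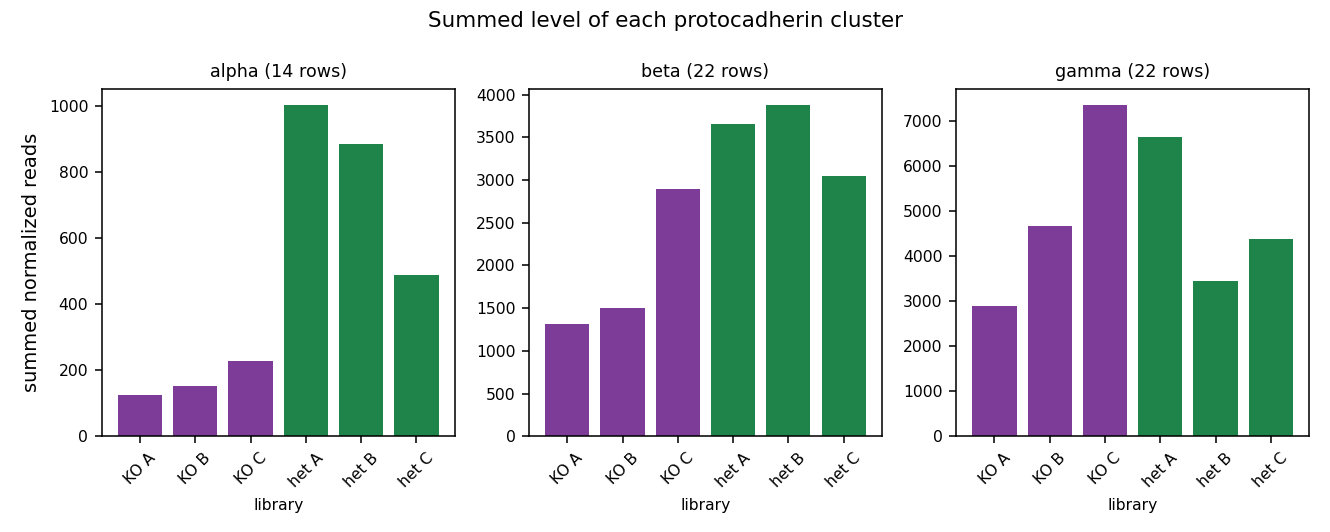
Summed normalized reads of each protocadherin cluster in each library (bars from 0, 1 library per bar, KO for knockout and het for heterozygous; the vertical scales differ between panels). Alpha sums are 126 to 229 in knockout and 490 to 1004 in heterozygous libraries, while gamma sums overlap.

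No non-clustered protocadherin passed among 11 tested, although 5 had an unadjusted p under 0.05 and the smallest adjusted p was 0.0516. Of all 18227 tested genes, 6085 had an unadjusted p under 0.05 with limma. With recovered reads, edgeR called 0 of them and DESeq2 called 2, both as lower. Pcdh20 had 60.3, 207 and 279 normalized reads in libraries A, B and C of the knockout and 591, 824 and 330 in heterozygous A, B and C. Knockout C and heterozygous C lay close to each other, with knockout below in all (log2 change -1.83 ± 0.55, adjusted p = 0.0516). Pcdh9, a neuronal protocadherin and the most abundant member per kilobase of the whole superfamily, averaged 962 normalized reads per kilobase in knockout and 1736 in heterozygous libraries. It had 5103, 7101 and 7374 normalized reads in knockout libraries and 15588, 11241 and 8494 in heterozygous libraries, separated without passing (-0.83 ± 0.25, adjusted p = 0.0547). Pcdh10, which acts in mouse in axon outgrowth, pointed the other way, with 1950, 2447 and 2403 normalized reads in knockout libraries and 1254, 1006 and 1913 in heterozygous libraries. Its lowest knockout library was just above its highest heterozygous library (0.75 ± 0.25, adjusted p = 0.0691). Pcdh19, known from a human X-linked epilepsy, had 348, 200 and 211 normalized reads in knockout libraries and 89.8, 44.1 and 190 in heterozygous libraries (1.42 ± 0.51, adjusted p = 0.0857). Pcdh1 was also separated, with knockout above (0.55 ± 0.22, adjusted p = 0.123). Pcdh18, at 93.5 normalized reads per kilobase in knockout and 78.1 in heterozygous libraries, did not pass (0.24 ± 0.24, adjusted p = 0.510). Without heterozygous C, 2 non-clustered members passed as higher and 2 as lower, and without knockout C 3 passed as lower, against 0 with all libraries.

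**Figure D5:**
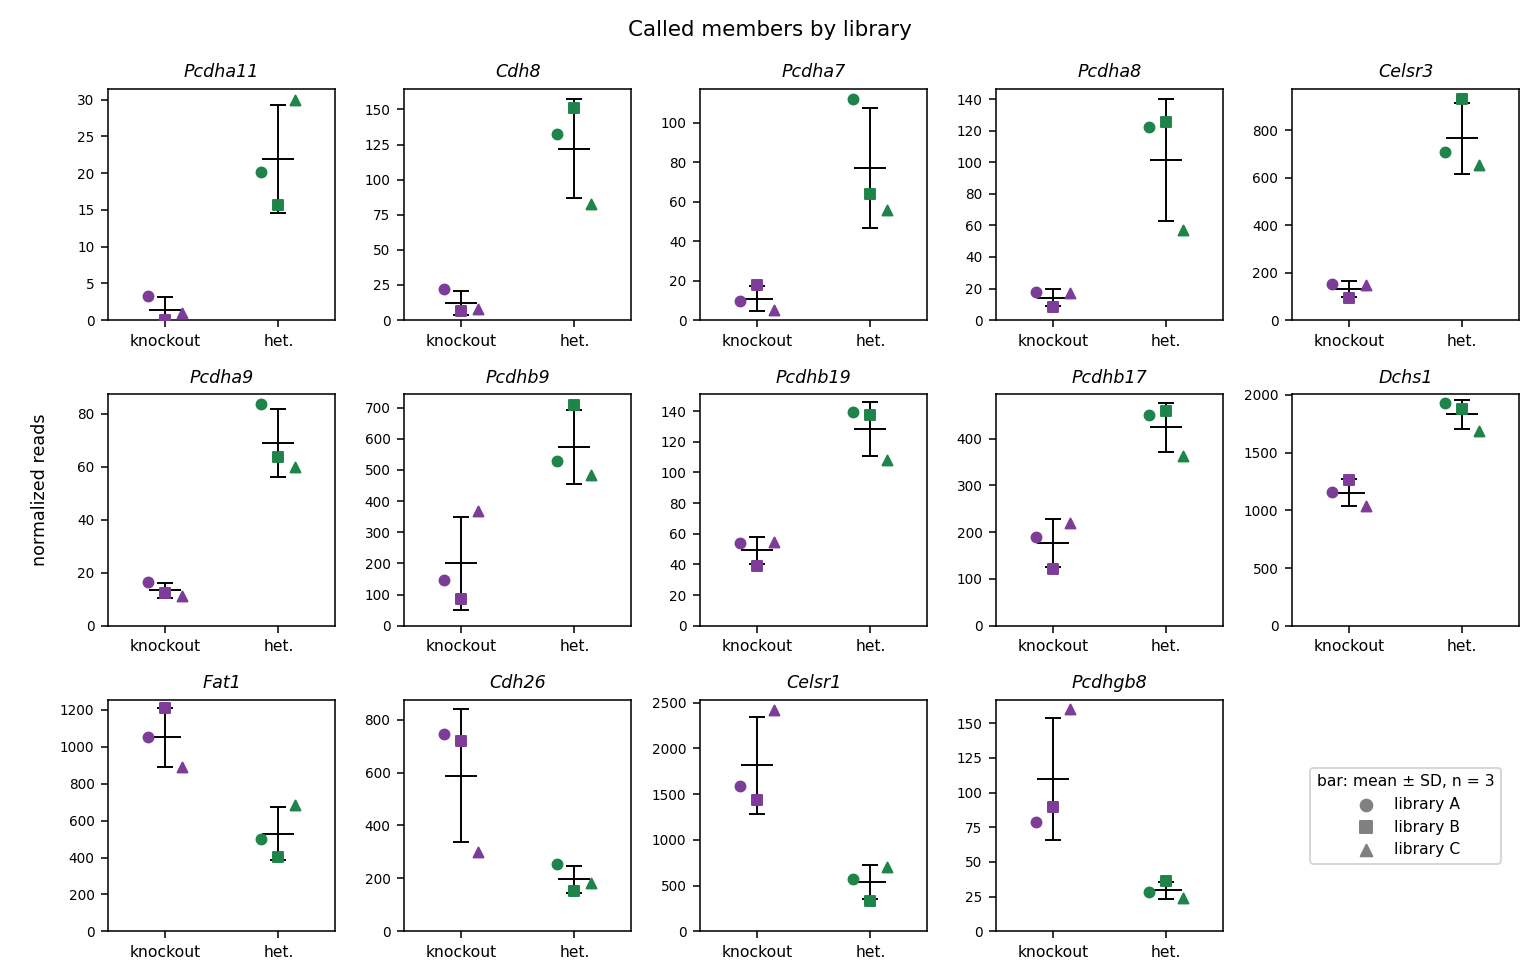
Normalized reads of the 14 called members in each library (symbols A, B and C; purple knockout, green heterozygous), with the mean and SD of 3 libraries, ordered by log2 change; each panel has its own axis from 0. In all 14 panels the knockout libraries lie wholly on one side of the heterozygous libraries, most closely for Cdh26, where knockout C (300) is near heterozygous A (253).

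The authors' deposited table called more members in the same directions. At its adjusted p under 0.05, 25 of 99 members with a value were called (25.3%, against 14.3% of all genes with a value in that table), 7 as higher and 18 as lower. All 14 members called here were among them with the same sign. The other 11 of the authors' deposited table were 4 non-clustered, 3 beta, 2 alpha, 1 gamma and 1 type II member.

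Genes that work with cadherins were examined as lists, to be read beside the 15.8% called and the median of 0.05 over all tested genes. The catenin and armadillo list, which ties cadherins to actin, had 2 of 13 tested genes lower and none higher with limma (median log2 change 0.27), while DESeq2 called 1 higher. Ctnnb1, beta-catenin, had 6099, 6876 and 7344 normalized reads in libraries A, B and C of the knockout and 13212, 10370 and 9007 in heterozygous A, B and C (-0.67 ± 0.20, adjusted p = 0.0490), and did not pass with edgeR on recovered reads (adjusted p = 0.0533). Afdn, afadin, which joins nectins to actin, also fell (-0.94 ± 0.20, adjusted p = 0.0163). Both groups were separated for these genes, and neither passed when knockout B, heterozygous A or heterozygous B was omitted, and 1 passed without knockout A.

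Among cadherin-repeat genes outside the naming pattern, 4 of 9 tested were higher and 1 was lower (median 1.10). With edgeR 3 were higher, and with no filter on low values 1 was. Cdhr3, known from ciliated airway cells in human, had 5283, 4520 and 1500 normalized reads in knockout libraries and 1208, 1091 and 806 in heterozygous libraries (1.69 ± 0.42, adjusted p = 0.0281). Its knockout order, A over B over C, was that of the ependymal marker sum and of Cdh26. The endothelial, the mural and fibroblast and the choroid plexus sums had this order as well. No link to any of these cell types was tested. Cdhr4 (1.39 ± 0.40, adjusted p = 0.0442) and the desmosomal cadherins Dsg2 (1.59 ± 0.46, adjusted p = 0.0451) and Dsc2 (2.04 ± 0.59, adjusted p = 0.0452) were higher too, although Dsc2 did not pass with edgeR (adjusted p = 0.0629). Clstn3, a calsyntenin of synapses, was lower (-1.17 ± 0.27, adjusted p = 0.0231). The 6 genes Dsg1a, Dsg1b, Dsg1c, Dsg3, Dsg4 and Dsc1 had no read. Without knockout B or heterozygous B none of the 9 passed, without heterozygous A 1 was higher, without heterozygous C only 1 passed, as lower, without knockout A 1 was higher and 1 lower, and without knockout C 5 were higher and 1 lower.

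Of 16 planar polarity and Fat-Dachsous pathway genes, 2 were higher, none lower, and the median was 0.14. They were the receptor Fzd6 (1338, 1262 and 867 normalized reads in knockout libraries, against 600, 261 and 422 in heterozygous libraries; 1.49 ± 0.32, adjusted p = 0.0175) and the membrane protein Vangl1 (1.30 ± 0.32, adjusted p = 0.0269). Both belong to the core of the pathway in which Celsr1 acts. The remaining Vangl, Fzd, Prickle and Dvl genes of the list did not pass and went both ways. Log2 changes were -0.12 for Vangl2, -0.26 for Fzd3, -0.52 for Dvl2 and -0.33 for Dvl3. They were 0.27 for Dvl1, 0.61 for Prickle1 and 0.004 for Prickle2. None of the 16 genes passed without knockout B or heterozygous B, and 1 did without heterozygous A or heterozygous C.

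The list of cadherin shedding and repression had 2 of 10 tested genes lower and none higher (median -0.14). Mmp24, a membrane protease that cuts N-cadherin on mouse neural stem cells, had 86.7, 60.5 and 141 normalized reads in knockout libraries and 465, 771 and 323 in heterozygous libraries (-2.42 ± 0.42, adjusted p = 0.00768). Zeb2, a repressor of E-cadherin, fell as well (-1.19 ± 0.23, adjusted p = 0.0125). Without heterozygous B 0 passed, and without heterozygous A or knockout B 1 did.

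The list of genes that act in protocadherin choice and signalling had 5 of 15 tested genes lower and none higher (median -0.43). Ctcf and the cohesin subunit Rad21, which loop the cluster enhancers to chosen promoters, had log2 changes of -0.72 ± 0.21 and -0.74 ± 0.17 (adjusted p = 0.0453 and 0.0227). Wiz, a zinc-finger protein found with them on chromatin, fell by 0.99 on the log2 scale (SE 0.26, adjusted p = 0.0333). Cyfip2 and Wasf1, parts of the actin-regulating WAVE complex, were lower as well (-1.41 ± 0.28 and -1.15 ± 0.28, adjusted p = 0.0135 and 0.0269). Without heterozygous A or heterozygous B none of these 15 passed, without knockout B 1 did, without knockout A 2, and without knockout C 6.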

How the data were processed

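RNA-seq libraries of sorted subventricular zone cells were compared, 3 knockout and 3 heterozygous, each made from at least 35 ng of RNA of pooled mice. HISAT2, featureCounts from Subread, DESeq2 and GRCm38 are named in the submitters' processing notes, without versions. The deposited value per library and the mean over libraries are a normalized signal, which the authors made by dividing reads by a size factor, per the file headers and the values. The deposited log2 fold change and its standard error, the test statistic and weight (scores) and the p-value columns are the authors' own, per the file headers. Dividing by the smallest step of each library gave whole reads for 100% of values (tolerance 0.02 reads).

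The members and all gene lists were chosen with earlier results of these data known. Rows averaging at least 10 (18227 of 55487) were tested on log2(value + 1) with limma 3.58.1 and a mean-variance trend in R 4.3.3, with genotype alone in the model, two-sided p-values and Benjamini-Hochberg adjustment over all tested rows. Fold changes are on that scale, which shrinks ratios of low values but can exceed the edgeR change where single libraries are at or near 0. The code was tested on simulated data. Named were every called member, the 3 highest members per kilobase of each subfamily, and the called members of each partner list; Cdh5, Cdh23, Fat3, Fat4, Dchs2, the other Pcdha11 row, Pcdh20, Pcdh19, Pcdh1, Pcdhb1, Pcdhb3, Pcdhb6, Pcdhgc5 and the members with few or no reads were added after their values were seen. Exon lengths and coordinates came from GENCODE M21 (all 102 members matched). Alternatives were edgeR 4.0.16, DESeq2 1.42.0, other pseudocounts, filters and thresholds, leaving out single libraries, and a replicate block. No 2 libraries of a group differed by sampling noise alone (lowest chi-square per degree of freedom 42.2). The series design calls them biological replicates, and the spread is that between pools. Figures were drawn with matplotlib 3.10.9.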

Additional observations from a re-analysis of the deposited data

How the results depend on the processing

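Main counts were 4 members higher and 10 lower, and 1318 and 1565 of all tested genes. At an adjusted p under 0.01 they were 1 and 2 members and 115 and 503 genes, and under 0.1 they were 8 and 23 members and 2348 and 2409 genes. DESeq2 on recovered reads called 7 members higher and 19 lower, and 2273 genes higher. Its count of all genes lower is not given here, so the 19 lower members have no background beside them. With each library left out in turn, members ranged over 1 to 4 higher and 1 to 23 lower, and all genes over 111 to 1964 higher and 470 to 2057 lower. Other filters, pseudocounts and edgeR kept these counts within 1.5 times. Of 77 uncalled tested members, 25 changed sign with some library left out. Among those named, the ranges were -0.085 to 0.512 for Cdh4, -0.349 to 0.259 for Cdh19, -0.191 to 0.360 for Cdh10, -1.595 to 1.216 for Cdh23, -0.832 to 0.361 for Cdh13, -0.030 to 0.389 for Pcdhb3, -0.182 to 1.420 for Pcdhb6, -0.366 to 0.6998 for Pcdhgc3 and -0.416 to 1.272 for Fat3. Cdh23 was also positive with edgeR under TMM and upper-quartile scaling and with DESeq2 (0.669, 0.729 and 0.631). The causes were not tested. No called member changed sign in any alternative. Without a filter on low values, Dchs1 and Pcdhb19 did not pass (adjusted p = 0.0549 and 0.0640). A replicate block on the library letters gave 3 members higher and 11 lower, and 1105 and 1205 genes. No pairing by letter was seen in the values: deviations from the group means correlated at -0.072, 0.021 and -0.103 for A, B and C, and 0 of 6 libraries correlated best with their own letter. With 3 libraries per group, these values cannot show whether libraries of the same letter were handled together. With 3 pools per group, changes of low rows such as single alpha isoforms were measured on few reads, and a p that misses the threshold does not show equal levels.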
